A study of Oncorhynchus mykiss with 6 samples.

Results

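A group of innate defence genes of rainbow trout liver are described here through their ribosome footprints, the short pieces of mRNA that translating ribosomes protect from nuclease. The genes are leap-2b, pxn1, GBP1 and IFI44L, and they were taken as every entry of the deposited table whose symbol, ignoring case, is one of these names. This gave 5 entries of 1213, because IFI44L has 2 entries. These are called entry 1, the more abundant, and entry 2. The cut descriptions in the table begin with "liver-ex" for leap-2b, "pentraxi" for pxn1, "guanylat" for GBP1 and "interfer" for both IFI44L entries, which match the names liver-expressed antimicrobial peptide, pentraxin, guanylate-binding protein and interferon-induced protein. Of the symbols, leap-2b matched 1 RefSeq gene and the others matched 0, so the identity of the other entries rests on the table alone.

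The liver is a main source of soluble innate defence molecules in fish as in mammals. LEAP-2 is a small cysteine-rich peptide made mostly in liver, with antimicrobial activity in fish. Pentraxins are plasma pattern-recognition proteins, of which mammalian C-reactive protein and serum amyloid P are the best known, and they bind microbial surfaces and engage complement. GBP1 and IFI44L are classed as interferon-stimulated genes in mammals. GBP1 is a large GTPase that acts on pathogen-containing vacuoles and on bacteria in the cytosol, and the biochemical role of IFI44L is less settled.

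The 6 libraries form 2 groups of 3, all from liver of Oncorhynchus mykiss. The control group was kept at 18 °C according to the design text and the sample descriptions, and at 20 °C according to the treatment protocol. The heat stress group was kept at 24 °C for 8 h. Sources used here do not give strain, age, sex or genotype, and the labels do not state that each library stands for its own fish. The spread behind each p-value is that of these libraries and may be technical. The authors' table lists changed genes only, chosen on these 6 libraries by an FDR below 0.05 and a change of 2-fold or more. A pass in the test below is therefore no independent evidence that a gene changed, and the folds may be too large. The listed genes held between 362308 and 863769 footprints per library, and depth relative to control replicate 1 was lowest in heat stress replicate 2, at 41.4%, and no library was deeper than control replicate 1. Footprints follow mRNA amount as well as translation, and in whole liver fewer cells of a type and less RNA per cell cannot be told apart.

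The genes leap-2b, pxn1 and IFI44L had fewer footprints in heat stress, and GBP1 had more. All 5 entries passed limma-voom at an adjusted p of 0.05, against 88.7% of the 1148 tested genes of the table. GBP1 was the entry that rose, as did 72.0% of tested genes, and 4 entries fell, as did 16.7%. The FPKM values of the groups did not overlap in any of the 5 entries, nor did they in 98.7% of listed genes. An exact permutation test on FPKM (two-sided) gave p = 0.1 for each entry, the smallest that 3 against 3 libraries allow.

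The antimicrobial peptide gene leap-2b was the most abundant of the 5 entries in control liver and fell in heat stress. Its FPKM (footprints scaled by gene length and library depth) stood at 652, 760 and 368 in control replicates 1, 2 and 3. Heat stress replicates 1, 2 and 3 had 72.9, 92.5 and 20.8 FPKM. The lowest control library was thus 3.98-fold above the highest heat stress library, and replicate 3 was the lowest library in both groups. These values rest on 1414, 1260 and 523 footprints in control and on 114, 83 and 37 in heat stress. Mean density went from 593 ± 203 to 62.1 ± 37.1 FPKM (SD, n = 3 per group), which is 9.56-fold lower. The log2 fold change was -3.52 ± 0.48 (SE; limma-voom adjusted p = 0.00199). The authors' deposited table gives -3.26 with an FDR of 4.38e-06.

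In control liver, leap-2b ranked 20 in mean FPKM among the 1213 listed genes, and 13 among those the authors list as lower in heat stress. In heat stress it ranked 194. Its fold change ranked 11 among the 269 tested genes with a negative value. Within the heat stress group its log2 FPKM had an SD of 1.16 between libraries, above 97.5% of the 1087 listed genes with footprints in every library, for which the median SD was 0.32. The call nevertheless held with each library left out in turn, with log2 fold changes from -3.87 to -2.80 and a highest limma-voom adjusted p of 0.0151.

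**Figure D1:**
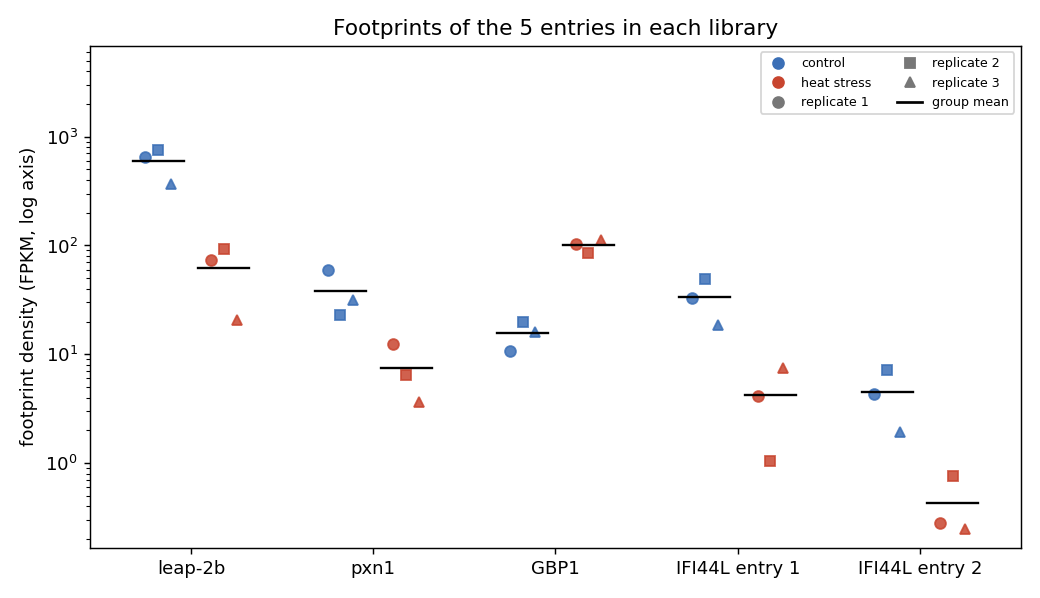
Footprint density in FPKM (log axis) of the 5 entries in each of the 6 libraries, coloured by group, with the marker shape giving the replicate number and the bar the group mean. Control and heat stress libraries do not overlap in any entry; leap-2b, pxn1 and both IFI44L entries are lower in heat stress and GBP1 is higher.

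The pentraxin gene pxn1 fell as well, but with values that lay closer together. It had 59.1, 22.8 and 31.8 FPKM in control replicates 1, 2 and 3, from 359, 106 and 122 footprints. It had 12.5, 6.52 and 3.64 FPKM in heat stress replicates 1, 2 and 3, from 55, 16 and 17 footprints. The lowest control library was 1.82-fold above the highest heat stress library, the narrowest gap of the 5 entries, and replicate 1 was the highest library in both groups. Mean density went from 37.9 ± 18.9 to 7.55 ± 4.52 FPKM (SD, n = 3 per group), which is 5.02-fold lower. The log2 fold change was -2.44 ± 0.50 (SE; limma-voom adjusted p = 0.0197). It did not pass without control replicate 1 (log2 fold change -2.02, limma-voom adjusted p = 0.0681), without heat stress replicate 2 (-2.44, adjusted p = 0.0702 by limma-voom) and without heat stress replicate 3 (-1.85, adjusted p = 0.120 by limma-voom).

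GBP1 moved the other way. Its density was 10.7, 19.9 and 16.0 FPKM in control replicates 1, 2 and 3, and 102, 85.6 and 112 FPKM in heat stress replicates 1, 2 and 3. The lowest heat stress library stood 4.30-fold above the highest control library. The 3 heat stress libraries lay within 1.31-fold of each other, and their SD on the log2 scale, 0.20, exceeded that of 24.4% of listed genes. The counts behind these values were 144, 205 and 142 in control and 995, 477 and 1241 in heat stress. Mean density rose from 15.6 ± 4.63 to 100.1 ± 13.5 FPKM (SD, n = 3 per group), a 6.44-fold higher mean. The log2 fold change was 2.73 ± 0.26 (SE; limma-voom adjusted p = 0.000209), with values from 2.47 to 2.94 and calls throughout when each library was left out. With median-of-ratios scaling over the listed genes, which shifts the median log2 fold change of all tested genes by -1.54, GBP1 was at 1.18 and lost its call (limma-voom adjusted p = 0.0843). That scaling takes most listed genes as unchanged, which has no basis in a table of changed genes, most of which rose by recovered depth. A rise of this size was common in the table, since GBP1 ranked 196 of 879 tested genes with a positive fold change.

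A second guanylate-binding protein entry, GBP3, was also listed. It had 6.01, 10.03 and 8.03 FPKM in the control libraries and 43.1, 38.7 and 38.0 FPKM in heat stress. Its log2 fold change was 2.34 ± 0.24 (SE; limma-voom adjusted p = 0.000373), but 0.80 and no call under median-of-ratios scaling. GBP1 was 1.78-fold, 1.99-fold and 1.996-fold as dense as GBP3 in control replicates 1, 2 and 3, and 2.38-fold, 2.21-fold and 2.95-fold as dense in heat stress replicates 1, 2 and 3. The ratio was therefore higher in every heat stress library than in any control library, a comparison that needs no scaling between libraries. Counting error of single libraries is given by the intervals below, and their overlap is no test of the difference between the groups. The GBP3 share of joint footprints had exact 95% binomial intervals of 29.7% to 42.6%, 28.8% to 39.6% and 28.0% to 41.0% in control. Those of heat stress replicates 1 and 2, 27.9% to 32.7% and 27.9% to 35.0%, overlapped all of these. Only that of heat stress replicate 3, 23.5% to 27.8%, lay below them. How the authors' counting treated reads that fit both entries is not given in the sources used here, so the split between them is uncertain.

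IFI44L fell in both of its entries. Entry 1 had 32.6, 48.8 and 18.7 FPKM in control replicates 1, 2 and 3, from 316, 361 and 118 footprints. In heat stress it had 4.12, 1.04 and 7.53 FPKM, from 29, 4 and 60 footprints. Heat stress libraries differed 7.24-fold among themselves, with replicate 2 the lowest and replicate 3 the highest, and their log2 SD of 1.46 exceeded that of 99.4% of listed genes. Mean density went from 33.4 ± 15.1 to 4.23 ± 3.25 FPKM (SD, n = 3 per group), 7.89-fold lower. The log2 fold change was -2.97 ± 0.57 (SE; limma-voom adjusted p = 0.0135). Entry 1 did not pass without control replicate 1 (log2 fold change -2.99, limma-voom adjusted p = 0.0582) and without heat stress replicate 1 (-2.99, limma-voom adjusted p = 0.0541).

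Entry 2 of IFI44L was the least abundant of the 5. It had 33, 42 and 10 footprints in the control libraries and 1, 2 and 1 in heat stress, or 4.36, 7.17 and 1.93 FPKM against 0.280, 0.760 and 0.250 FPKM. Over the groups these are 85 against 4 footprints, a 17.2-fold lower rate per recovered depth with an exact 95% interval of 6.47 to 64.5, which covers counting error only. The log2 fold change by limma-voom was -3.49 ± 0.71 (SE; adjusted p = 0.0186). The call held when control replicate 2 or 3 was removed. Leaving out control replicate 1 or heat stress replicate 1, 2 or 3 gave limma-voom adjusted p-values of 0.0589, 0.155, 0.0691 and 0.238. With log2(FPKM + 1) in place of voom, which understates changes of low genes, the log2 fold change was -1.84.

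The 2 IFI44L entries kept similar proportions in control liver. Entry 2 made up 9.46%, 10.4% and 7.81% of their joint footprints in control replicates 1, 2 and 3, with exact 95% binomial intervals of 6.60% to 13.0%, 7.61% to 13.8% and 3.81% to 13.9%. In heat stress the share was 3.33%, 33.3% and 1.64%, from 1 of 30, 2 of 6 and 1 of 61 footprints, and the intervals (0.0844% to 17.2%, 4.33% to 77.7% and 0.0415% to 8.80%) were too wide to show a difference. Both entries were lowest in control replicate 3 among the control libraries. None of the 5 entries had counts identical to those of another listed entry, which 9 sets of other entries did, but reads shared in part between the IFI44L entries cannot be seen in this table.

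GBP1 and IFI44L thus went in opposite directions within the same libraries. GBP1 was 0.328-fold, 0.408-fold and 0.860-fold as dense as IFI44L entry 1 in control replicates 1, 2 and 3. IFI44L entry 1 was thus the denser in each control library, but only narrowly in replicate 3. There GBP1 had 16.0 FPKM from 142 footprints and IFI44L entry 1 had 18.7 FPKM from 118, a gap that counting error may cover. In heat stress replicates 1, 2 and 3 GBP1 was 24.8-fold, 82.3-fold and 14.9-fold as dense. These ratios are taken within each library, so their rise does not depend on how libraries are scaled.

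**Figure D2:**
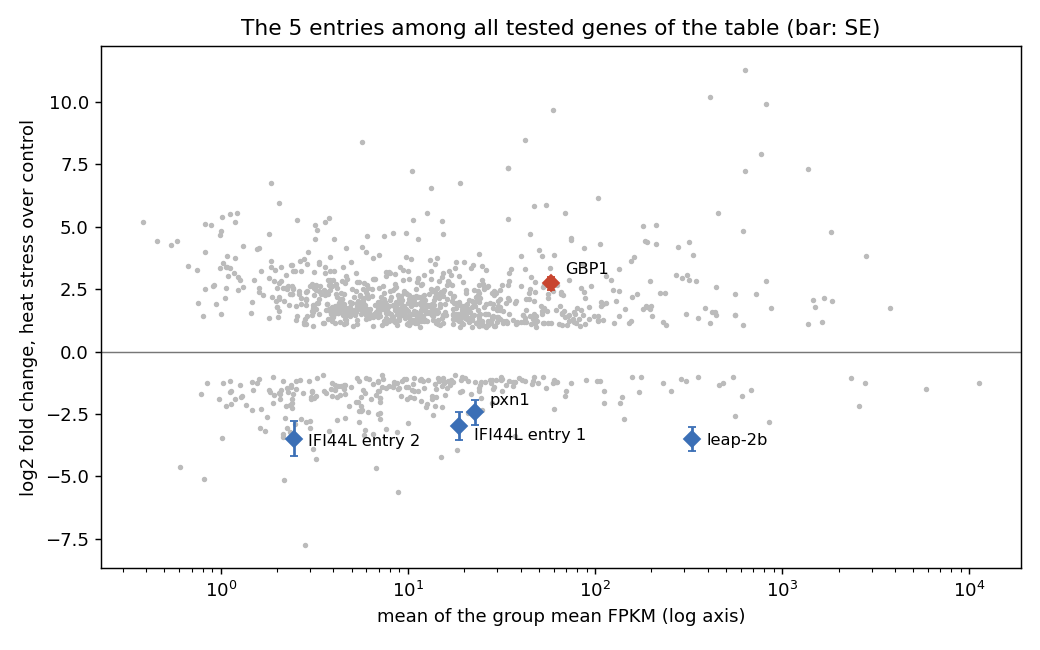
Log2 fold change of heat stress over control (limma-voom, recovered depth) against the mean of the group mean FPKM (log axis) for the tested genes of the table (grey), with the 5 entries as diamonds and SE as bars. No gene lies near 0 because the table holds changed genes only; leap-2b, at -3.52, lies among the most abundant of the genes with a large fall.

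The 4 falling entries were then set against entries for hepatocyte products, because several of those were also lower in heat stress. Of 21 hepatocyte marker symbols, 5 were listed, with 7 entries, of which 4 fell, 2 rose and 1 was not tested. The 2 that rose, fga and FGA, had identical counts and entered once. The summed FPKM of these entries was 31046 to 32457 in the control libraries and 10337 to 17091 in the heat stress libraries, with apoa-i-1, the apolipoprotein A-I gene, as the largest part. No entry of the leukocyte, erythrocyte or endothelial marker lists was in the table, so their levels were not analysed here.

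Per 10000 FPKM of these hepatocyte markers, leap-2b had 210.03, 234 and 118 FPKM in control replicates 1, 2 and 3. It had 42.6, 66.1 and 20.1 FPKM in heat stress replicates 1, 2 and 3. The groups did not overlap, and the mean was 4.36-fold lower in heat stress (two-sided exact permutation p = 0.1, again the lowest attainable). With library sizes taken from these markers, a setting chosen after the data were seen, leap-2b kept its call at a log2 fold change of -2.23 (limma-voom adjusted p = 0.000549). The fall of leap-2b was in that sense larger than that of the summed hepatocyte markers. These markers are in the table only because they changed in these same libraries, and fga among them rose. Their sum is therefore no neutral measure of hepatocytes, and p-values on this scale, here and below, are descriptive.

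The calls of pxn1 and IFI44L did not hold on that scale. It moved the median log2 fold change of all tested genes by 1.22. Only 18 genes of the table were called lower on it, against 192 by recovered depth, so most falls lost their call. Per 10000 FPKM of the markers, pxn1 had 19.0, 7.02 and 10.2 FPKM in control and 7.31, 4.66 and 3.52 in heat stress, so that its groups overlapped. IFI44L entry 1 had 10.5, 15.04 and 5.97 FPKM in control and 2.41, 0.743 and 7.28 in heat stress, which overlapped as well. The exact permutation test gave p = 0.2 for each. Their log2 fold changes were -1.13 (limma-voom adjusted p = 0.702) and -1.88 (limma-voom adjusted p = 0.0621). Entry 2 of IFI44L, whose groups did not overlap, stood at -2.26, also without a call (limma-voom adjusted p = 0.104). GBP1 was 15.6-fold higher on this scale, and its log2 fold change of 3.95 passed the test (limma-voom adjusted p = 3.62e-08). On this scale 879 genes were called higher, against 826 by recovered depth.

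**Figure D3:**
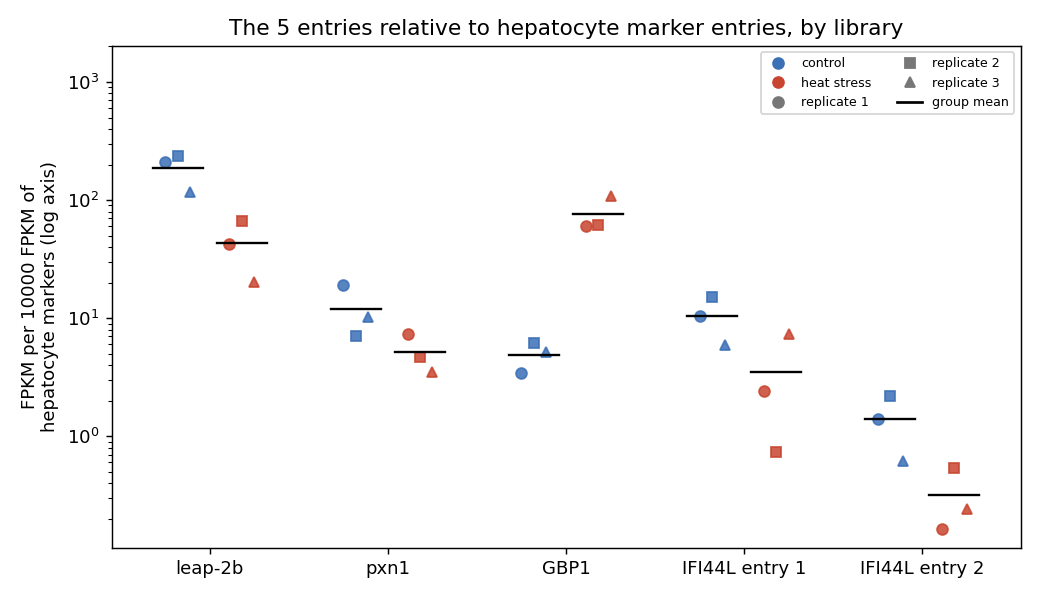
FPKM of each entry per 10000 FPKM of summed hepatocyte marker entries (log axis), by library, with the group mean as a bar. The control and heat stress libraries remain apart for leap-2b, GBP1 and IFI44L entry 2, and overlap for pxn1 and IFI44L entry 1.

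The direction of each entry was the same under every scaling tried. Scaling by the summed footprints of the listed genes moved the median log2 fold change of all tested genes by -0.93, and leap-2b, pxn1, GBP1 and IFI44L entries 1 and 2 were then at -4.45, -3.38, 1.80, -3.89 and -4.42. All 5 passed the test in that setting. Under median-of-ratios scaling the 4 falling entries were at -5.06, -4.01, -4.53 and -5.04 in the order leap-2b, pxn1, IFI44L entry 1 and entry 2, each past the test. Both scalings shrink rises and deepen falls in a table where 72.0% of tested genes rose by recovered depth. The deeper falls are therefore no separate support. That share itself depends on the scaling, and which scaling is right was not tested.

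**Figure D4:**
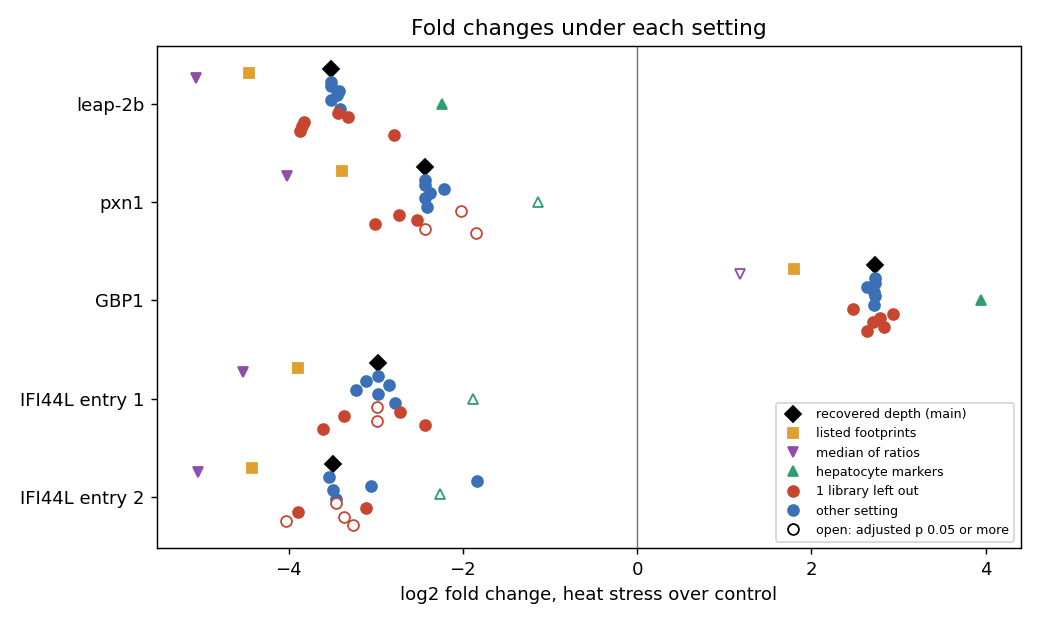
Log2 fold change of heat stress over control for each entry under the main setting (black diamond) and each alternative, with open symbols where the limma-voom or limma adjusted p was 0.05 or more. No entry crosses 0 under any setting; leap-2b is filled throughout, and GBP1 is open under median-of-ratios scaling alone.

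The wider innate defence programme was read from 5 lists of symbols, chosen with earlier results of these data known. Besides the 5 entries described, 15 entries of these lists were in the table and 14 were tested. Of the 14, 13 rose and 1, b2m, the light chain of MHC class I, did not pass (limma-voom adjusted p = 0.117). In the whole table, which holds changed genes only, 88.7% of tested genes passed and 72.0% rose. Of the 13 calls, 8 held with each library left out in turn, 4 held with library sizes from listed footprints and 2, itln and TRIM25 entry 2, held under median-of-ratios scaling. Over the whole table, 826 genes were called higher by recovered depth, 215 with listed footprints and 88 under median-of-ratios scaling. In that last setting 3 entries, CD209, DTX3L and b2m, had log2 fold changes below 0, none past the test. Both scalings treat the listed genes as balanced, although most rose by recovered depth, and so shift fold changes downward.

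Of the antimicrobial peptides and lysozyme, leap-2b was the only listed entry among 27 symbols. The trout gene leap2, also named leap-2a in RefSeq, and hepcidin (hamp) were not in the table. Of the list of pentraxins and other acute phase proteins, 29 symbols, 4 entries were in the table, of which 3 rose and pxn1 fell. The 3 that rose are the lectin genes itln and CD209 and the metalloreductase gene STEAP4, so pxn1 was the only pentraxin among them. This list is not complete. Outside it, the fibrinogen gene fga rose from 311 ± 35.8 to 813 ± 78.7 FPKM. The gene tcbp2, whose cut description begins with "trout C-", fell, so pxn1 need not be the only fall of this kind. The median log2 fold change was 1.48, against 1.66 over all tested genes. The intelectin gene itln, a lectin that binds microbial sugars, rose from 74.7 ± 16.8 to 562 ± 162 FPKM (SD, n = 3; log2 fold change 2.89 ± 0.28, SE; limma-voom adjusted p = 0.000213). The C-type lectin gene CD209 rose from 248 ± 25.7 to 575 ± 130 FPKM, and the metalloreductase gene STEAP4 from 79.5 ± 10.01 to 298 ± 133 FPKM. CD209 did not pass when control replicate 2, or replicate 2 or 3 of the heat stress group, was removed (highest limma-voom adjusted p 0.0629).

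Of the 62 symbols on the list of interferon-induced genes, 9 were in the table with 12 entries, of which 8 rose, the 2 IFI44L entries fell, b2m did not pass and 1 was not tested. Their median was 2.34 on the log2 fold change scale, against 1.66 over all tested genes, and it stayed at 2.34 with the entry at 0 in control set to its bound. It includes GBP1 at 2.73, and also herc4 at 2.71 and TRIM25 entry 2 at 5.18, whose places on the list are doubtful. All of these lie above the median, so its distance from 1.66 is not read as a result about interferon-induced genes. The kinase gene pkz, a fish relative of PKR with Z-DNA-binding domains, rose from 1.57 ± 0.522 to 9.95 ± 3.91 FPKM, a log2 fold change of 2.52. With each library left out in turn the pkz fold change was 2.12 or more, and the call was lost when control replicate 1 was removed (limma-voom adjusted p = 0.0798). SAMD9, an antiviral factor in mammals, rose from 0.270 ± 0.160 to 2.07 ± 0.344 FPKM. The list is not complete. Ifitm3, an interferon-induced transmembrane protein gene outside it that was named after its values were seen, went from 55.3 ± 14.2 to 281 ± 108 FPKM (log2 fold change 2.32, limma-voom adjusted p = 0.00190). The ubiquitin ligase gene herc4 rose from 1.07 ± 0.145 to 7.14 ± 0.362 FPKM. Its place on the list rests on its symbol, and induction by interferon was not tested for it or the others.

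TRIM25, a ubiquitin ligase of RIG-I signalling in mammals, had 3 entries. Entry 1 rose from 3.11 ± 0.783 to 11.1 ± 1.89 FPKM. Entry 2 had 0 footprints in the 3 control libraries, where up to 3 footprints over the group would be allowed, and 12, 16 and 17 in heat stress. Its cut description begins with "mucin-5A", so its symbol is doubtful. Entry 3 was likewise at 0 in control and was not tested.

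The list of interferons, receptors and regulatory factors had 3 entries in the table, namely tlr5, jak1 and myd88. None of these is an interferon, an interferon receptor or an interferon regulatory factor. All 3 rose, with a median log2 fold change of 1.81, close to the 1.66 over all tested genes, of which 72.0% rose. The Toll-like receptor adaptor gene myd88 rose from 10.04 ± 3.30 to 35.8 ± 10.01 FPKM, but did not pass once control replicate 1 was removed (limma-voom adjusted p = 0.0586). Jak1, a kinase of interferon receptors, rose from 3.68 ± 0.731 to 11.6 ± 2.88 FPKM. The flagellin receptor gene tlr5 rose from 1.49 ± 0.588 to 13.7 ± 7.93 FPKM, a call that held without heat stress replicate 1 but not without any other library (limma-voom adjusted p up to 0.206). No entry of the list of cytokines and inflammation, 34 symbols, was in the table.

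**Figure D5:**
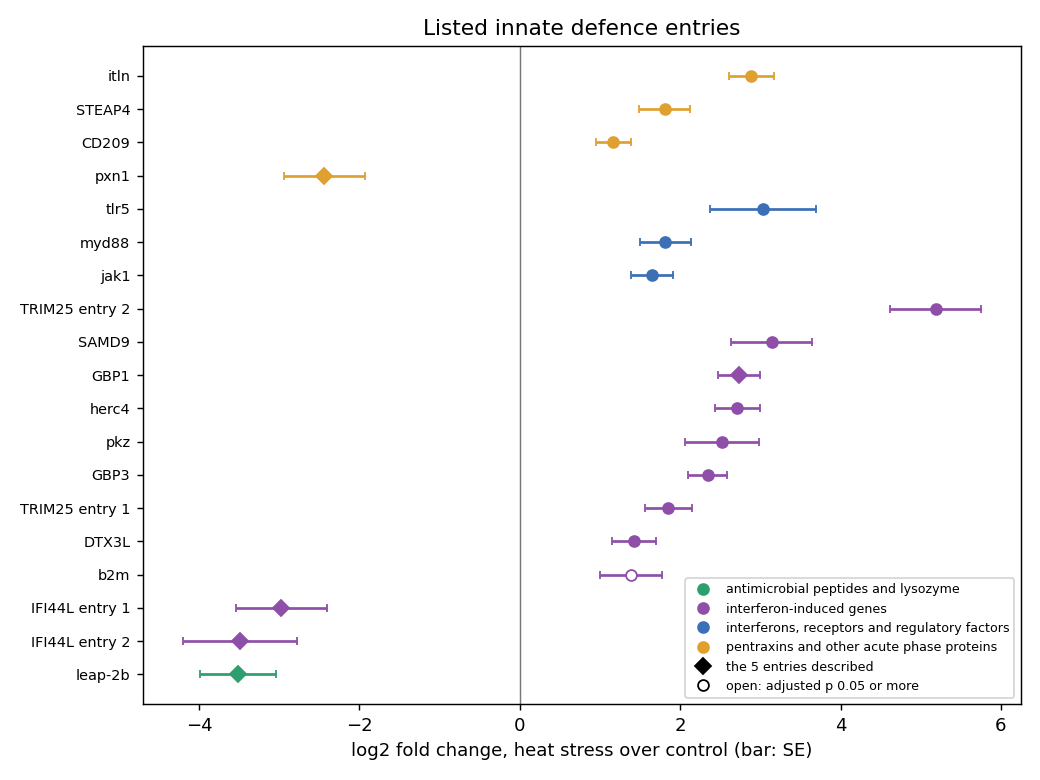
Log2 fold change of heat stress over control (limma-voom, recovered depth) with SE for the tested entries of the innate defence lists, coloured by list, with diamonds for the 5 entries described and open symbols at an adjusted p of 0.05 or more. The entries below 0 are leap-2b, pxn1 and the 2 IFI44L entries; every other tested entry lies above 0 on this scale.

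The listed genes most like each entry were found by Pearson's r of log2(FPKM + 1) over the 6 libraries, among 824 named entries with a mean of at least 5 FPKM. Such values are dominated by the difference between the 2 groups, which all listed genes show, and are given as a description. For leap-2b they were apoa-i-2, an apolipoprotein A-I gene (r = 0.986), the aspartoacylase gene aspa (r = 0.985) and Rap1gap (r = 0.985). For pxn1 they were the alkaline phosphatase gene ALPL (r = 0.977), the vitamin D receptor gene vdra (r = 0.969) and tcbp2 (r = 0.969), whose cut description begins with "trout C-". Tcbp2 fell from 262 ± 109 to 81.7 ± 20.7 FPKM (SD, n = 3; limma-voom adjusted p = 0.0179).

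GBP1 resembled tbcb, a tubulin folding cofactor gene (r = 0.998), STIP1, an Hsp70 and Hsp90 co-chaperone gene (r = 0.998), and hsc71, annotated as a heat shock gene (r = 0.997). IFI44L entry 1 resembled the replicative helicase gene mcm7 (r = 0.981), the glycogenin gene Gyg1 (r = 0.977) and the splicing factor gene srsf5a (r = 0.971). For entry 2 they were NDUFB4 (r = 0.971), coq8a (r = 0.968) and UGT2B20 (r = 0.967).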

How the data were processed

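Footprint counts and FPKM per gene of 6 liver libraries were deposited by the authors in 1 fixed-width table with 8 characters per cell, so identifiers, descriptions and some symbols are cut. The deposited table also holds group mean FPKM and the authors' log2 fold change, p-value and FDR. The submitters' processing notes name Bowtie2 and edgeR but neither role nor version, and the build, annotation and counting tool are likewise not given in the sources used here. Another 411 lines hold overflowing annotation text and were not used.

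Relative depth was the median ratio of count over FPKM between libraries, taken from 94 genes with 200 or more footprints and 10 or more FPKM in each library (SD at most 1.24%). Counts were tested with limma-voom (limma 3.58.1, R 4.3.3) on these depths without further scaling, for genes that reached 10 depth-scaled footprints in 3 libraries and a sum of 15. Benjamini-Hochberg adjustment of p-values ran over 29300 genes, the number the authors tested as estimated from FDR, rank and p-value. Because cells of the table touch, the counts were recorded with an unspecified unit and no other count model was run. In a simulation of 1213 genes (1001 tested, 200 changed), the test recovered 26.8% of log2 changes of 1 and 92.1% of those of 2, with 0 calls among unchanged genes. The simulation gave all genes the same dispersion and left most unchanged, unlike the deposited table. The 4 falling entries varied more between libraries than most listed genes, so these shares do not carry over to them.

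Alternatives were other library sizes, filters, log2(FPKM + 1) and log2(FPKM + 0.1), a replicate block and leaving out each library. Library sizes from hepatocyte markers were added after the data were seen. The genes described, the lists and the tests were chosen with earlier results of these data known. Named genes are the 5 entries, up to 8 entries with the smallest p in each of the 5 innate defence lists, the entries described counted among them, and the 3 most alike by r. Outside this rule fall b2m, DTX3L, TRIM25 entry 3, Ifitm3, il4r2, the hepatocyte markers, the KEGG class entries and the entries without a symbol. These were named after their values were seen. A gene was taken out of the lists and their counts and is not reported here. Symbols were matched to RefSeq (USDA_OmykA_1.1) for names only. Tables, exact tests and figures were made in Python 3.11.15 with scipy 1.17.1, numpy 2.4.6, matplotlib 3.10.9 and pandas 2.3.3.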

Additional observations from a re-analysis of the deposited data

How the results depend on the processing

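The sign of the log2 fold change was the same for all 5 entries under every alternative run. Of 15 alternatives, the call held in 15 for leap-2b, 14 for GBP1, 12 for IFI44L entry 1 and 11 for pxn1; for IFI44L entry 2 it held in 9 of 14, since the filter at 10 FPKM removed it. Of the 5 entries called, 2 remained with library sizes from hepatocyte markers, and 2 to 5 with each library left out (without control replicate 1: 2; without heat stress replicate 1, 2 or 3: 3 each). The 1018 genes called of 1148 tested became 479 with library sizes from listed footprints, 355 with median of ratios, 556 of the 651 genes left under a filter of 10 FPKM in 3 libraries, and 609 (without control replicate 1) to 967 with each library left out, with 647 without heat stress replicate 3. The split was 826 higher and 192 lower by recovered depth, 215 and 264 with listed footprints, 88 and 267 with median of ratios, and 879 and 18 with hepatocyte markers. The replicate numbers of the labels did not pair the libraries (correlations of same-numbered deviations -0.053, -0.032 and 0.0080), and with a replicate block 1100 genes and all 5 entries were called. IFI44L entry 2 rests on 4 footprints in heat stress.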

Other observations

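A further group, chosen after the data were seen, was the 14 entries that the deposited annotation places in the KEGG class of the immune system, GBP1 and GBP3 among them. Of 13 tested entries 7 rose, 2 fell and 4 did not pass by limma-voom, with a median log2 fold change of 1.65 against 1.66 over all tested genes, so the class as a whole lay at the level of the table, where 72.0% of tested genes rose and 16.7% fell. With median-of-ratios scaling the 7 calls of a rise were lost and 3 entries fell, namely TXNIP, mfn2 and pkn2. That scaling takes most listed genes as unchanged and so lowers the fold changes in this table. The co-chaperone gene sugt1, which takes part in NOD-like receptor sensing, rose from 15.9 ± 1.81 to 69.3 ± 4.64 FPKM (SD, n = 3; limma-voom adjusted p = 0.000276), and its log2 fold change of 2.12 was 0.58 without a call under median-of-ratios scaling. The paracaspase family gene malt3 went from 13.7 ± 1.48 to 39.6 ± 5.59 FPKM (limma-voom adjusted p = 0.00257), and its log2 fold change of 1.52 was -0.03 in that setting. Nlrp1 entry 2, an inflammasome sensor gene, rose from 3.11 ± 0.982 to 11.01 ± 2.10 FPKM, a log2 fold change of 1.93 that was 0.37 without a call in that setting. A more abundant nlrp1 entry of the table lies outside this class and is not described here. The 2 that fell were TXNIP, a thioredoxin-binding protein gene (35.6 ± 10.2 to 12.5 ± 1.27 FPKM), and the mitofusin gene mfn2 (24.0 ± 4.97 to 9.57 ± 2.65 FPKM); the call of TXNIP was lost without 4 of the 6 libraries in turn, and that of mfn2 without 4.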
